A study of Mus musculus with 6 samples.

Results

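Short fragments of the small housekeeping RNAs were measured in small RNA libraries from the sensorimotor cortex, the cortical area that holds the motor output to the spinal cord and receives somatic sensation. These RNAs are the Y RNAs, the RNA of the signal recognition particle (7SL), 7SK, vault RNA, ribosomal 5S RNA and their relatives. The animals were male C57BL/6J mice of postnatal day 90. In the 3 SCI mice the whole cord had been cut between cervical levels C5 and C6. In the 3 control mice the cord was exposed and left undamaged. Cortex was taken 7 days after either operation, and each library came from its own sample. The labels give isoflurane in oxygen and nitrous oxide as the anaesthetic for the transection, and name no transgene. The sample titles mark the controls as wt and carry SCI in its place for the injured mice. A read was a member when it matched no Mir-named hairpin, mitochondrial tRNA, snoRNA, scaRNA or snRNA of GENCODE M21 and lay, in sense and without mismatch, in a nuclear transcript of biotype rRNA, misc_RNA, ribozyme, sRNA or scRNA. Of 2543604 distinct reads of 17 to 34 nt, 8153 met this rule. They made up 0.434%, 0.813% and 0.591% of all reads in SCI libraries 1, 2 and 3, against 0.492%, 0.582% and 0.62% in control libraries 1, 2 and 3.

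Library totals ran between 14628518 and 23408028 reads in the SCI group and between 10585062 and 24480988 in the control group. The brain-enriched hairpin Mir9 had 82819 to 92248 reads per 1000000 library reads (RPM) in SCI libraries and 95874 to 106333 in control libraries. The liver hairpin Mir122 had 3.76 to 5.26 and 2.66 to 5.10, so the libraries carried the miRNAs of brain tissue. Neuronal Mir132 was also lower in every SCI library, Mir128 overlapped, and Mir124 had 12354 to 13719 in SCI and 7340 to 13125 in control libraries. Lower values in every SCI library were not limited to neuronal hairpins. They were also found for oligodendrocyte Mir219a (828 to 947, against 1009 to 1160), mural Mir143 and Mir145a, and epithelial Mir200a and Mir429. Oligodendrocyte Mir338, endothelial Mir126a and epithelial Mir200b overlapped, and muscle Mir206 was higher in every SCI library. Muscle Mir1a had 369 to 426 in SCI and 394 to 420 in control libraries. Erythrocyte Mir451a had 291, 617 and 775 in SCI libraries 1, 2 and 3, against 546, 331 and 425 in control libraries 1, 2 and 3. Reads of 30 to 34 nt took 0.584%, 3.66% and 2.31% of SCI libraries 1, 2 and 3, against 1.33%, 0.611% and 0.543% of control libraries 1, 2 and 3. SCI 2 and SCI 3 thus held more long reads than any control library and SCI 1 held fewer than control 1 and 2. In cortex as a whole, fewer cells of a type and less RNA per cell cannot be told apart.

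Y RNAs, 7SL, 7SK, vault RNA, 5S rRNA and the RNAs of RNase P and RNase MRP are made by RNA polymerase III, whose transcripts end in a run of U that the La protein binds. In a Y RNA the start and the end of the molecule pair into a stem that the Ro60 protein recognises. 7SL carries nascent secreted proteins to the endoplasmic reticulum as part of the signal recognition particle, 7SK holds the elongation factor P-TEFb in an inactive state, and vault RNA belongs to the large cytoplasmic vault particle. RNase P trims tRNA precursors and RNase MRP cuts the rRNA precursor. Fragments of Y RNAs are known from tissues, blood and dying cells.

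Sequences of some of these RNAs are given here because the ends of the fragments carry most of the results. The RNA sequences are those of GENCODE M21 (GRCm38), written with T for U. Capitals mark the commonest 3' end read of each RNA, or for 5S and the rRNA antisense transcript the commonest read inside it. Y1 is encoded by Rny1 (chr6:47788069-47788180, minus strand) and Y3 by Rny3 (chr6:47781624-47781725, plus strand). 7SK is shown by the last 60 of the 331 bases of Rn7sk (chr9:78175303-78175633, minus strand). Its marked read had only 75 reads in all, 2.83% of the family, and its 17 nt are the shortest length kept. For 5S, bases 60 to 119 of Rn5s (chr8:123598158-123598276, minus strand) are shown. The last is bases 1168 to 1219 of CT010467.1 (chr17:39846353-39848827, minus strand).
Y1 RNA: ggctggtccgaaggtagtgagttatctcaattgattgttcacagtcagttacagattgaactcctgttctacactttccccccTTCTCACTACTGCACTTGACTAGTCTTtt
Y3 RNA: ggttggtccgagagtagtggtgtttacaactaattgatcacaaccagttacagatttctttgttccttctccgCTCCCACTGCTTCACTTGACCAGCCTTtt
7SK last 60 bases: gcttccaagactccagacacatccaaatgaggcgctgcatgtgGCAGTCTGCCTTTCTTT
5S bases 60 to 119: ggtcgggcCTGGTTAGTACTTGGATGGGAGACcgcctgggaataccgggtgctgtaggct
CT010467.1 stretch: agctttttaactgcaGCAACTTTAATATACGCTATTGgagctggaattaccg

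Y1 was the most abundant family, with 48.4% of all member reads over 1049 distinct sequences. The other families with a named gene were an rRNA antisense transcript (35.2%), 5S (8.60%), Y3 (4.54%), 7SL (1.07%), 7SK (0.380%), vault RNA (0.119%), RNase MRP RNA (0.0317%) and RNase P RNA (0.0258%). 5.8S rRNA had 76 reads, telomerase RNA 36 reads and the BC1 pseudogene Bc1-ps1 29 reads in the 6 libraries together. BC1, the dendritic RNA of rodent neurons, is annotated under a long noncoding biotype and therefore lay outside the rule. A further 1.56% came from misc_RNA copies that resembled no named RNA.

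Y1 fragments had 2732, 3284 and 2502 RPM in SCI libraries 1, 2 and 3, against 3495, 3524 and 2205 in control libraries 1, 2 and 3. The groups overlapped, since control 3 was the lowest of the 6 libraries and SCI 2 the third highest. Y3 fragments had 233, 371 and 288 RPM in the SCI libraries, against 214, 264 and 251 in the controls. Only SCI 1 lay within the range of the controls. 5S fragments had 393, 606 and 658 in the SCI libraries, against 385, 531 and 513 in the controls, with SCI 1 again among the controls.

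7SL fragments had 95.2, 56.0 and 58.1 RPM in SCI libraries 1, 2 and 3, against 62.8, 82.3 and 51.6 in control libraries 1, 2 and 3. 7SK fragments had 17.6, 34.7 and 26.4, against 20.7, 15.3 and 16.99 in the controls, so SCI 2 and SCI 3 lay above all controls and SCI 1 did not. Vault RNA, represented by Vaultrc5, had 4.58, 9.53 and 7.98, against 6.32, 7.94 and 6.17. RNase MRP RNA (Rmrp) had 0.889 to 2.78 RPM in SCI libraries and 1.68 to 2.17 in controls. RNase P RNA (Rpph1) had 1.30 to 1.75 in SCI libraries and 1.35 to 2.27 in controls. In each of these families the groups overlapped.

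**Figure D1:**
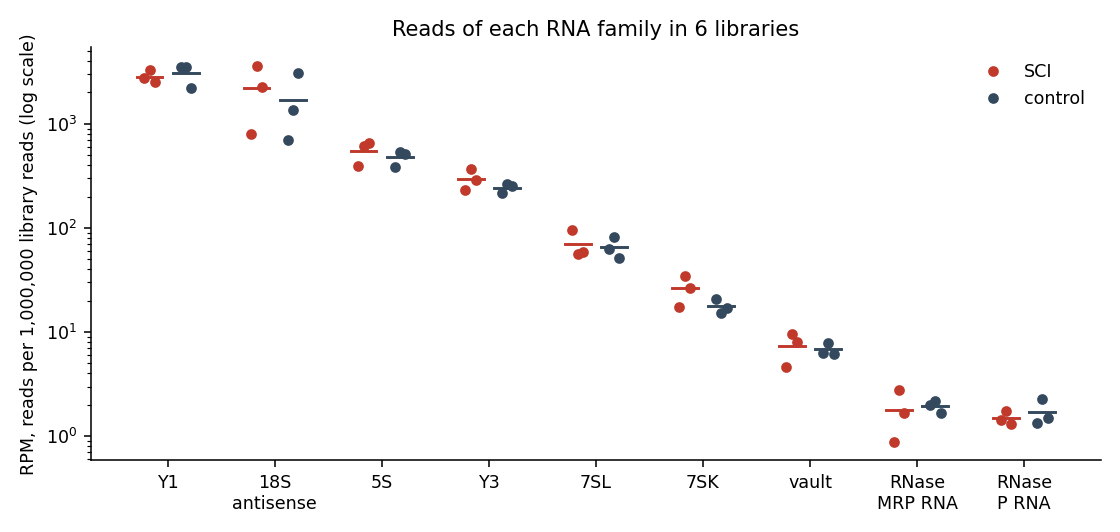
RPM (logarithmic axis) of 9 RNA families, SCI libraries in red on the left and control libraries in dark blue on the right of each pair. Points are libraries and lines are group means; the groups overlap in every family, and means span from 1.497 RPM for RNase P RNA to 2839 for Y1 in SCI.

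The shares of 0 of 9 families lay apart between the groups, where 18.1% of all features lay higher in every SCI library and 2.64% lower, and two-sided exact permutation tests gave p between 0.2 and 0.8 (3 against 3, where the smallest p is 0.1). In edgeR's quasi-likelihood test over a table of 4703 small RNA features, with Benjamini-Hochberg adjustment, 0 of 11 member families passed an adjusted p under 0.05. Over all features of the table, 2.42% passed as higher in SCI and 0.68% as lower. At an unadjusted p under 0.05, 1 family was higher and 1 lower, where the whole table had 8.44% and 4.76%. DESeq2 also called 0 families, against 1.81% of all features higher and 0.936% lower. The log2 fold change of SCI over control was -0.51 ± 0.29 (SE) for Y1, -0.09 ± 0.29 for Y3, -0.16 ± 0.30 for 5S, -0.26 ± 0.37 for 7SL, 0.19 ± 0.34 for 7SK and -0.28 ± 0.36 for vault RNA. Scaling by total reads in place of TMM moved the median log2 fold change of all features by 0.32, and the sign then turned for Y3 (0.29), 5S (0.21), 7SL (0.09) and vault RNA (0.12).

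The 2 families at an unadjusted p under 0.05 were 5.8S rRNA and the copies without a named RNA. 5.8S rRNA, part of the large ribosomal subunit, had a log2 fold change of -1.30 ± 0.48 (SE; edgeR adjusted p = 0.184) on 76 reads. The copies without a named RNA had 67.6, 182 and 130 RPM in SCI libraries 1, 2 and 3, against 32.9, 41.5 and 75.9 in control libraries 1, 2 and 3. Their log2 fold change was 0.98 ± 0.35 (edgeR adjusted p = 0.154), and SCI 1 lay below control 3. Of their reads 98.9% also lay in transcripts outside the rule, such as retained introns, so their source gene cannot be told. The same limit touches families with a named gene, since 100% of RNase MRP RNA reads, 94.6% of 5S reads, 66.3% of 7SL reads and 50.0% of RNase P RNA reads also lay in such transcripts.

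Y1 reads came almost wholly from the end of the molecule. On average over libraries 50.1% started at base 84 and 35.8% at base 83 of the 112 bases, 36.4% stopped at base 110 and 28.4% at base 109. Starts at base 83 or 84 made up 89.5%, 81.9% and 85.9% of Y1 reads in SCI libraries 1, 2 and 3, against 83.1%, 89.03% and 85.7% in control libraries 1, 2 and 3. Base 84 is where the capitals begin in the sequence above, directly after a run of C. The commonest Y1 read, 27 nt from base 84 to base 110, alone held 21.9% of the family. It had 479, 742 and 582 RPM in the SCI libraries, against 813, 778 and 464 in the controls, and the groups overlapped. The commonest read that stopped earlier, from base 84 to base 108, had 166, 138 and 122 RPM in the SCI libraries, against 145, 191 and 138 in the controls.

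The start of Y1 gave far fewer reads. Reads that began within 3 nt of the first base made up 4.02%, 8.09% and 6.82% of Y1 reads in SCI libraries 1, 2 and 3, against 6.72%, 2.81% and 3.71% in control libraries 1, 2 and 3. The commonest was 32 nt long, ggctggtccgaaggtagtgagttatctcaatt, and had 9.16, 65.4 and 26.8 RPM in the SCI libraries, against 29.8, 15.2 and 11.8 in the controls. RNAfold predicted 34 base pairs for the whole Y1 RNA, of which 17 join the commonest 5' end read to the commonest 3' end read, and it left base 84 unpaired.

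Y3 is the shorter relative, with 81 identical bases over an alignment of 112 columns. Its reads were spread more evenly. The leading starts were bases 74 (16.8% on average) and 75 (11.2%), the first base (9.08%) and bases 34 (6.36%) and 35 (5.59%) in the loop. The commonest 3' end read, 27 nt from base 74 to base 100, held 5.67% of the family, with 12.6, 20.8 and 17.8 RPM in SCI libraries 1, 2 and 3, against 11.6, 17.9 and 12.8 in control libraries 1, 2 and 3. The groups overlapped, as they did for its counterpart of the same length in Y1.

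**Figure D2:**
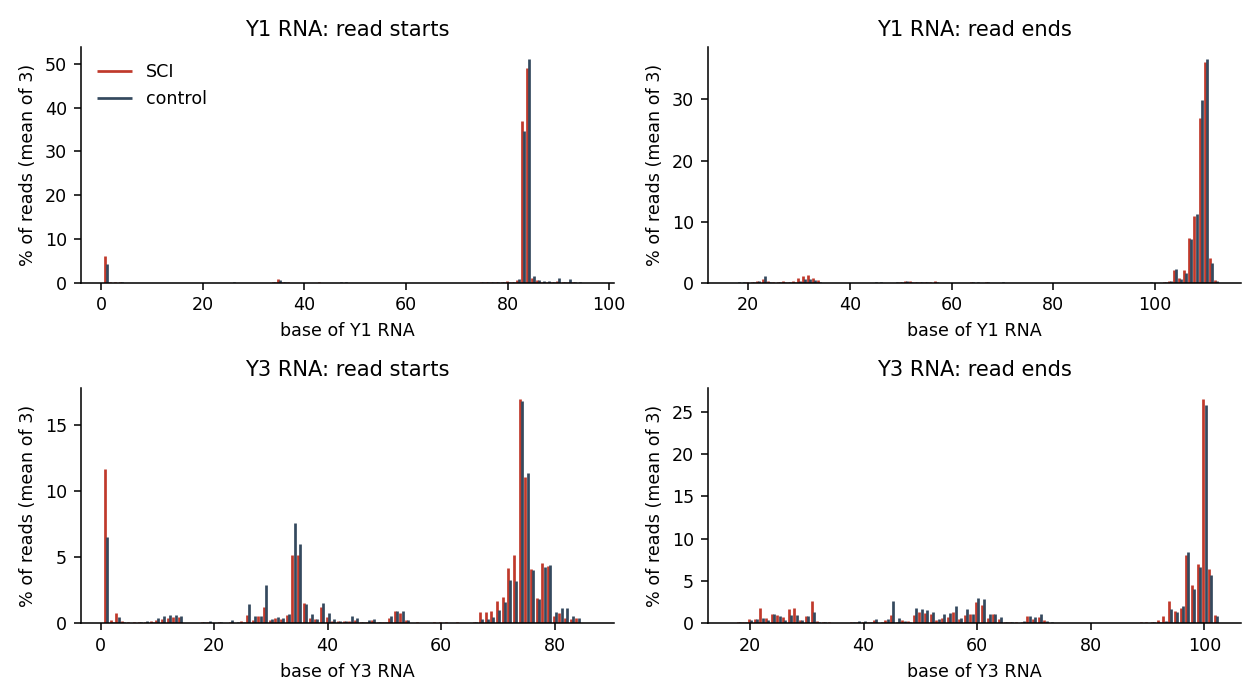
Percentage of Y1 reads (top) and Y3 reads (bottom) that start (left) or end (right) at each base of the RNA, as means of 3 SCI libraries (red) and 3 control libraries (dark blue). Y1 starts stand at bases 83 and 84 in both groups, whereas Y3 also has starts at its first base, 11.6% of reads in SCI and 6.54% in control, and at bases 34 and 35.

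Reads at the start of Y3 took a larger share of the family in SCI. They made up 13.3%, 13.1% and 12.0% of Y3 reads in SCI libraries 1, 2 and 3, against 8.78%, 5.76% and 6.94% in control libraries 1, 2 and 3. The groups did not overlap, and the difference of means was 5.66 points (exact permutation p = 0.1, the smallest possible). The difference was 4.23 points among reads of 17 to 29 nt, with an exact permutation p of 0.1 again. With each distinct sequence counted once it was 1.51 points (exact permutation p = 0.3). These fragments had 31.1, 48.7 and 34.5 RPM in the SCI libraries, against 18.8, 15.2 and 17.4 in the controls. In edgeR the log2 fold change was 0.79 ± 0.33 (SE) with an adjusted p of 0.257, so the fragment did not pass over the whole table.

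The commonest Y3 5' end read was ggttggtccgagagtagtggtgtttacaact, 31 nt long. It had 1.30, 14.3 and 5.17 RPM in SCI libraries 1, 2 and 3, against 1.96, 0.850 and 0.940 in control libraries 1, 2 and 3. SCI 2 was far above the rest and SCI 1 lay among the controls, so this read overlapped between the groups. Of the 12 single Y3 5' end sequences tested, 11 had a positive log2 fold change with a median of 1.07. 0 of them passed an adjusted p under 0.05 in edgeR. As higher in SCI, 6 reached an unadjusted p under 0.05 in edgeR, where 9.84% of all sequences tested did, and 2 an adjusted p under 0.05 in DESeq2, where 5.26% did. They are nested reads of the same molecule and not independent of each other. In contrast, starts at bases 34 and 35 took 7.44%, 11.6% and 11.9% of Y3 reads in the SCI libraries, against 13.7%, 12.2% and 14.9% in the controls (exact permutation p = 0.1).

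The 3' ends of 7SL and 7SK took a smaller share of their families in SCI. Unlike the 5' end shares, 3' end shares were added after the data were seen. For 7SL, reads that stopped within 3 nt of the last base made up 28.5%, 41.6% and 46.1% of placed reads in SCI libraries 1, 2 and 3, against 60.4%, 74.1% and 56.5% in control libraries 1, 2 and 3. The difference was -24.9 points and every SCI library lay below every control (exact permutation p = 0.1). With each distinct sequence counted once it was -4.61 points (exact permutation p = 0.3), and no value could be had without reads shared with transcripts outside the rule. For 7SK the same share was 30.1%, 20.5% and 30.7% in the SCI libraries, against 56.7%, 51.4% and 45.4% in the controls. The difference was -24.1 points, again without overlap (exact permutation p = 0.1), and -11.2 points with each distinct sequence counted once.

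Reads from inside both RNAs took the complementary part. For 7SL they made up 67.6%, 56.3% and 50.1% in SCI libraries 1, 2 and 3, against 37.8%, 24.6% and 42.1% in control libraries 1, 2 and 3. For 7SK they made up 66.8%, 77.7% and 67.2%, against 42.6%, 46.4% and 52.6%. These shares and the 3' end shares above leave out reads with added bases at the 3' end, which matched no transcript. At the 7SL 3' end those numbered 542, 952 and 806 in SCI libraries 1, 2 and 3, beside 397, 544 and 534 matched reads. In control libraries 1, 2 and 3 they numbered 1360, 809 and 996, beside 870, 645 and 714. The 5' end of 7SL took 3.81%, 2.14% and 3.7997% in the SCI libraries, against 1.87%, 1.26% and 1.35% in the controls, on 180 reads in all. This difference of 1.76 points turned to -0.226 without reads also in other transcripts and to -0.527 with each distinct sequence counted once. SCI 1 was peculiar in that 5.82% of its 7SL reads stopped at base 100, against 0.612% and 0.604% in the other SCI libraries and 0%, 0.115% and 0.475% in the controls. Without SCI 1 the 3' end difference of 7SL was -19.8 points, and the groups stayed apart.

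On the scale of library reads, 7SL 3' end fragments had 27.1, 23.2 and 26.8 RPM in SCI libraries 1, 2 and 3, against 37.9, 60.9 and 29.2 in control libraries 1, 2 and 3. Their log2 fold change was -1.12 ± 0.38 (SE) with an edgeR adjusted p of 0.132. The inner 7SL reads had 64.3, 31.4 and 29.1 RPM in the SCI libraries, against 23.7, 20.2 and 21.7 in the controls (log2 0.64 ± 0.38, adjusted p = 0.54 in edgeR). For 7SK the 3' end fragments had 4.65, 6.66 and 7.33 RPM, against 10.9, 6.71 and 6.66, with a log2 fold change of -0.74 ± 0.36 (edgeR adjusted p = 0.4). The inner 7SK reads had 10.3, 25.3 and 16.01 RPM in the SCI libraries, against 8.15, 6.05 and 7.72 in the controls (log2 0.86 ± 0.35, edgeR adjusted p = 0.256). Without control 3, the 7SL 3' end fragment passed edgeR with a log2 fold change of -1.41 (adjusted p = 0.0247). Without control 2 its log2 fold change was -0.63 (adjusted p = 0.561). With scaling by total reads the log2 fold change of the 3' end fragments was -0.73 for 7SL and -0.38 for 7SK.

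All 3704 matched 3' end reads of 7SL also lie inside Gm47295 and Gm47299, which GENCODE annotates as miRNA genes over the ends of Rn7s1 and Rn7s2. The leading 7SK 3' end read, 17 nt from base 315, had 0.479, 0.427 and 0.653 RPM in SCI libraries 1, 2 and 3, against 1.13, 0.661 and 0.490 in control libraries 1, 2 and 3, and the groups overlapped.

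**Figure D3:**
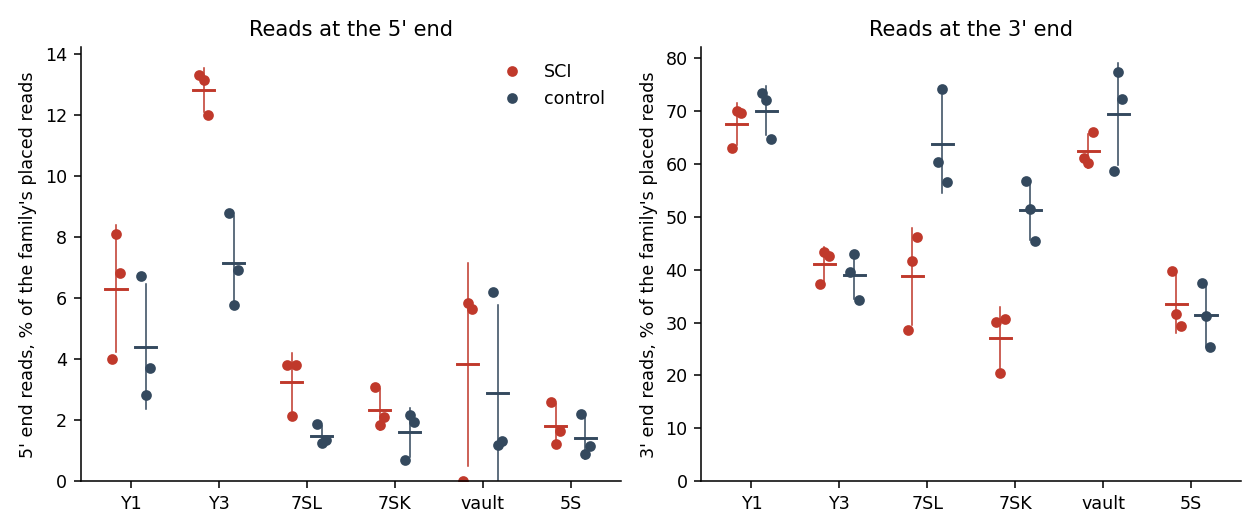
Share of each family's placed reads that start within 3 nt of the RNA's first base (left panel) or stop within 3 nt of its last base (right panel), in percent, SCI in red on the left and control in dark blue on the right of each pair. Points are libraries, horizontal lines means and vertical lines 1 SD; the 3' end shares of 7SL and 7SK lie below the controls in all 3 SCI libraries, and the 5' end shares of Y3 and 7SL above, where that of 7SL turns round without reads shared with other transcripts or with each distinct sequence counted once.

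The remaining families kept a similar balance in both groups. Vault RNA reads stopped at the 3' end in 61.2%, 60.1% and 66.0% of cases in SCI libraries 1, 2 and 3, against 58.6%, 77.4% and 72.2% in control libraries 1, 2 and 3, and 50.8% of them on average started at base 117 of the 143 bases. 5S reads stopped at the 3' end in 39.7%, 31.6% and 29.3% of cases in the SCI libraries, against 37.4%, 31.2% and 25.4% in the controls. Among reads that matched the 119 bases GENCODE gives for 5S, the commonest stop lay inside the RNA, at base 91, where 55.8% ended on average. Reads that ran on past base 119 with TT matched no transcript and are left out of these shares. They numbered 3651, 7356 and 5242 in SCI libraries 1, 2 and 3, against 8401, 3233 and 4760 in control libraries 1, 2 and 3. Reads that stopped at base 91 numbered 2334, 8212 and 8022 in the SCI libraries, against 4495, 3232 and 7912 in the controls, so the reads with TT were the more numerous in SCI 1, control 1 and, by a single read, control 2. The leading read with this stop, shown in capitals from base 68, had 38.3, 57.9 and 67.2 RPM in the SCI libraries, against 19.9, 49.03 and 60.5 in the controls, and the groups overlapped. The leading 3' end read of 5S, 18 nt from base 102, had 18.6, 16.1 and 17.5 RPM in the SCI libraries, against 13.5, 23.4 and 17.5 in the controls. Starts at base 75 of 5S made up 2.90%, 2.17% and 2.21% of the reads in the SCI libraries, against 14.4%, 4.65% and 4.01% in the controls, of which control 1 stood far above the rest.

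Over 3 places in 6 families, 7 of 18 shares did not overlap between the groups, each with an exact permutation p of 0.1. The same kind of share was not computed for other features, so this count has no background to be read against. The 3 places of a family add up to the whole, so these shares are not independent of each other. In RPM, 4 of 23 fragments lay higher in all SCI libraries than in all controls, or 17.4%, where 18.2% of all 4715 features of that table did. 1 of 23 lay lower, or 4.35%, against 2.65% of the table. In edgeR 0 of 23 fragments passed, against 2.42% of features higher and 0.679% lower. DESeq2 also called 0, against 1.8% of features higher and 0.933% lower. At an unadjusted p under 0.05, 4 fragments were higher and 1 lower, where the table had 8.48% and 4.67%.

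Among the single reads, short 3' pieces of Y1 stood at the head of the list of lower ones. ctactgcacttgactagtcttt, 22 nt from base 90 to base 111, had 0.889, 0.854 and 0.753 RPM in SCI libraries 1, 2 and 3, against 3.40, 2.93 and 2.08 in control libraries 1, 2 and 3. Its log2 fold change was -1.82 ± 0.33 (SE; edgeR adjusted p = 0.126, DESeq2 adjusted p = 0.00266). actgcacttgactagtcttt, which starts at base 92 and stops at the same base, had 0.0684, 0.0854 and 0.0502 RPM in the SCI libraries, against 1.44, 0.567 and 0.531 in the controls (log2 -3.62 ± 0.67, edgeR adjusted p = 0.126). The SCI values of this second read all lay below the RPM of 3 counts, which is 0.205, 0.128 and 0.151 in SCI libraries 1, 2 and 3. The size of its change is therefore poorly known. The third, from base 90 to base 110, had 3.76, 4.998 and 3.01, against 19.6, 14.4 and 7.88 (log2 -1.91 ± 0.39, edgeR adjusted p = 0.126, DESeq2 adjusted p = 0.00444). In all of them the SCI libraries lay below every control. They were picked for their small p, so this separation largely follows from the choice. The share of all sequences that lay apart was not computed.

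These reads are nested pieces of the same molecule. Together, starts at bases 90 to 93 took 0.958%, 1.04% and 0.831% of Y1 3' end reads in SCI libraries 1, 2 and 3, against 3.85%, 2.19% and 2.52% in control libraries 1, 2 and 3 (exact permutation p = 0.1). This range of bases was chosen after the values were seen. The longer reads that start at base 83 or 84 took 95.7%, 93.2% and 95.05% in the SCI libraries, against 90.999%, 93.4% and 92.8% in the controls. Mean length of Y1 3' end reads was 26.9, 27.1 and 27.1 nt in the SCI libraries, against 26.7, 26.8 and 26.7 nt in the controls.

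The 3 single reads of smallest p among the higher ones came from copies without a named RNA, and their sequences are not shown. The read of smallest p had 0.957, 2.01 and 2.81 RPM in SCI libraries 1, 2 and 3, against 0, 0.0945 and 0.163 in control libraries 1, 2 and 3 (edgeR adjusted p = 0.126). The next had 0.479, 4.06 and 1.81 RPM in the SCI libraries, against 0, 0 and 0.163 in the controls, and the third had 0.684, 1.24 and 2.41, against 0.0436, 0.189 and 0.327. The groups were apart in each of them, which largely follows from the choice by p, and at so low an RPM their sizes are poorly known. A longer piece of 5S, 29 nt from base 91 to base 119, had 13.5, 30.2 and 28.6 RPM in the SCI libraries, against 10.3, 8.98 and 5.64 in the controls. Its log2 fold change was 1.45 ± 0.37 (SE; edgeR adjusted p = 0.132, DESeq2 adjusted p = 0.0312), and it was singled out after its values were seen.

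Of the 8153 member sequences 384 passed the filter on low counts. 0 of them passed edgeR, which also called 0 of all 31242 sequences tested (0%) in either direction. At an unadjusted p under 0.05, 31 members were higher in SCI, where 9.84% of all sequences were, and 36 were lower, where 7.06% were. DESeq2 called 11 members higher and 7 lower, against 5.26% and 1.98% of all sequences. The lower ones were 6 Y1 3' end reads and 1 read of another family. The higher ones were 8 reads of the copies without a named RNA, 2 Y3 5' end reads and the 5S read above. The median log2 fold change was 0.03 for the 384 members and 0.03 for all sequences tested. By place, the median was 1.07 for Y3 5' end reads, 0.43 for Y1 5' end reads and -0.06 for 5S 5' end reads. At the 3' end it was 0.44 for Y3, 0.03 for 5S, -0.12 for vault RNA, -0.45 for Y1, -0.61 for 7SL and -0.64 for 7SK. Inner reads had -0.09 for Y1, -0.09 for Y3 and -0.17 for 5S. The rRNA antisense reads had 0.87 and the copies without a named RNA 1.37. The 5' ends and 3' ends thus did not move in the same way in all families.

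Fragment length differed between families more than between groups. The commonest length was 27 nt for Y1 3' end reads (50.0% on average), 22 nt for 7SL 3' end reads (24.3%), 24 nt for inner 5S reads (15.1%), 26 nt for vault RNA 3' end reads (33.9%) and 32 nt for Y1 5' end reads (15.4%). Long reads of 30 to 34 nt made up 37.2%, 78.5% and 62.9% of Y1 5' end reads in SCI libraries 1, 2 and 3, against 43.0%, 53.9% and 48.9% in control libraries 1, 2 and 3. SCI 2 and SCI 3 were highest and SCI 1 lowest. The SCI libraries stood in the same order in their share of long reads of any kind, whose part in these values was not tested. Among reads of 17 to 29 nt, the 5' end share of Y1 differed by -0.0279 points, against 1.90 points over all lengths.

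**Figure D4:**
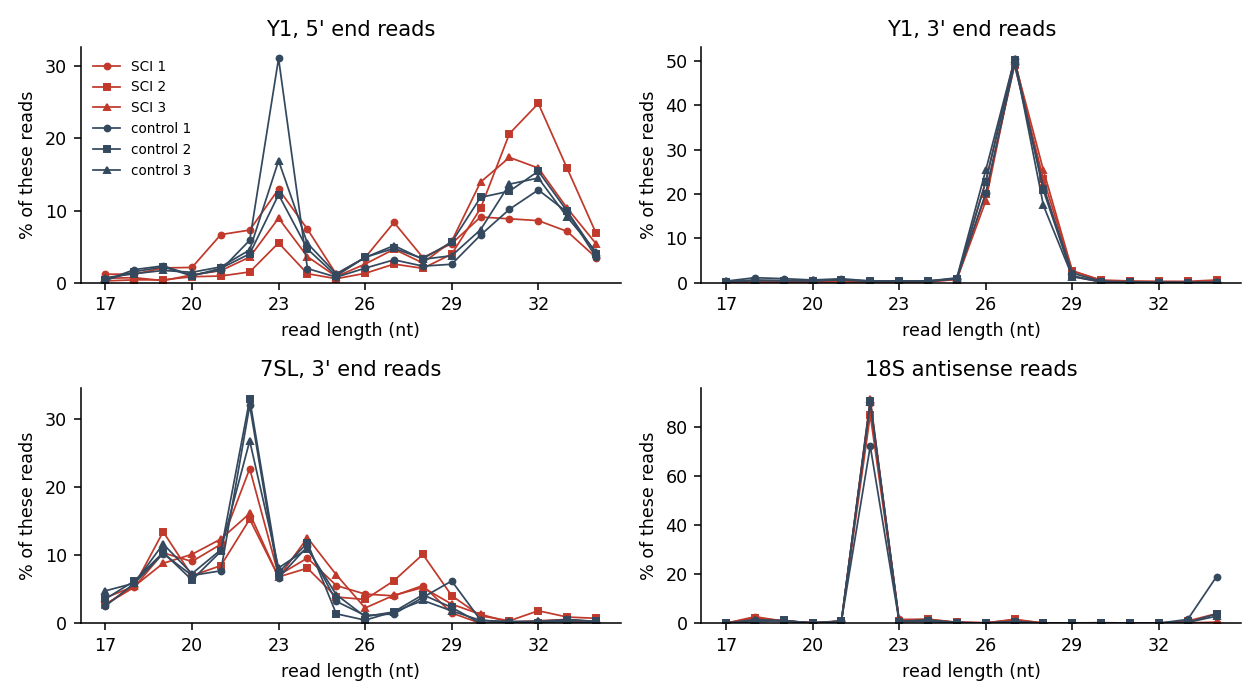
Percentage of reads of each length from 17 to 34 nt for Y1 5' end, Y1 3' end, 7SL 3' end and rRNA antisense reads, 1 line per library, SCI in red and control in dark blue. Y1 5' end reads have maxima near 23 and 32 nt whose heights differ between libraries, and Y1 3' end reads peak at 27 nt in all 6; the antisense reads peak at 22 nt, with 34 nt reads standing out in control 1.

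The second most abundant family came from CT010467.1, which GENCODE places under biotype rRNA. It lies on the minus strand opposite Gm42418 (chr17:39846958-39848788, plus strand). Of 1807 stretches of 25 bases in Gm42418, 1220 occur in CT010467.1 on the opposite strand and 0 on the same strand. Gm42418 is a transcript with the sequence of 18S rRNA, so these reads are antisense to it. They had 796, 3579 and 2238 RPM in SCI libraries 1, 2 and 3, against 702, 1349 and 3073 in control libraries 1, 2 and 3. The groups overlapped, and edgeR gave a log2 fold change of 0.02 ± 0.40 (SE; adjusted p = 0.995).

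Unlike the other families, nearly all antisense reads shared their last base. They stopped at base 1204 in 99.7%, 99.9% and 99.8% of cases in SCI libraries 1, 2 and 3, against 99.8%, 99.9% and 99.9% in control libraries 1, 2 and 3. The 22 nt read in capitals, from base 1183, held 87.4% of the family. It had 715, 3045 and 2046 RPM in the SCI libraries, against 507, 1221 and 2768 in the controls. Control 1 also had 19.1% of these reads starting at base 1171, where the SCI libraries had 0.215%, 3.95% and 0.467% and the other controls 3.82% and 2.92%.

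Many reads at the 3' ends carried bases that the annotated RNA does not have, a measure outside the rule. They were found as reads without any match whose leading part lay in the RNA and whose last 1 to 3 bases did not. At the 3' end of 7SL such reads made up 57.7%, 63.6% and 60.2% of all 3' end reads in SCI libraries 1, 2 and 3, against 61.0%, 55.6% and 58.2% in control libraries 1, 2 and 3. Most of them ended in a single A, added after base 299 in 63.1% of these reads and after base 300 in 30.7%. RefSeq ends Rn7s1 at 299 bases, so the A after base 299 stands in place of the last annotated T of GENCODE. The genome after each annotated end was not read here, so an A after the last annotated base of 7SK may be encoded there. For 7SL, the annotated genes Gm47295 and Gm47299 run past the ends of Rn7s1 and Rn7s2. A read with an A encoded after base 300 of either gene would have matched them and was not counted as added. Other genomic copies of 7SL were not searched.

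At the 3' end of Y1 added bases were found in 12.8%, 19.7% and 17.9% of reads in SCI libraries 1, 2 and 3, against 17.9%, 16.5% and 16.4% in control libraries 1, 2 and 3. A single A accounted for most of them, with 49.9% of such reads ending in an A after base 109 and 34.6% in an A after base 110. For Y3 the share was 14.6%, 15.4% and 14.3% in the SCI libraries, against 14.7%, 15.01% and 15.7% in the controls. For 7SK it was 26.9%, 30.04% and 22.7%, against 28.4%, 30.4% and 29.1%. The groups overlapped in each of these families, with exact permutation p between 0.3 and 0.9. Among reads that stopped inside the RNA, any added bases were found on average in 7.49% of Y1 reads in SCI and 7.37% in control. The means were 8.98% and 8.70% for Y3, and 6.28% and 6.27% for 7SL. For 7SK they were 6.51% and 12.0% on 122 reads in all, and the groups did not overlap (exact permutation p = 0.1). Added A alone was found in 2.83% ± 0.23 of these inner Y1 reads in SCI and 2.80% ± 0.22 in control (SD, n = 3 each). In inner 7SL reads it was found in 2.22% ± 1.47 and 2.33% ± 0.29. The rRNA antisense reads had added bases in 0.110% ± 0.031 in SCI and 0.1204% ± 0.031 in control.

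For 5S the added bases were of another kind. They stood on 64.9%, 65.6% and 61.3% of 3' end reads in SCI libraries 1, 2 and 3, against 73.5%, 67.4% and 63.0% in control libraries 1, 2 and 3, and 88.96% of them were TT after base 119. RefSeq gives Rn5s 121 bases where GENCODE gives 119, so these reads reached the RefSeq end of the RNA. Added bases that were all A were found on 3.12%, 2.83% and 2.90% of 5S 3' end reads in the SCI libraries, against 1.66%, 2.35% and 2.51% in the controls, and the groups did not overlap (exact permutation p = 0.1). Reads with TA after base 119 also end in A but are not in this share. They numbered 142, 331 and 205 in SCI libraries 1, 2 and 3, against 148, 113 and 190 in control libraries 1, 2 and 3. The share thus misses many 5S reads that end in an A beyond base 119.

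**Figure D5:**
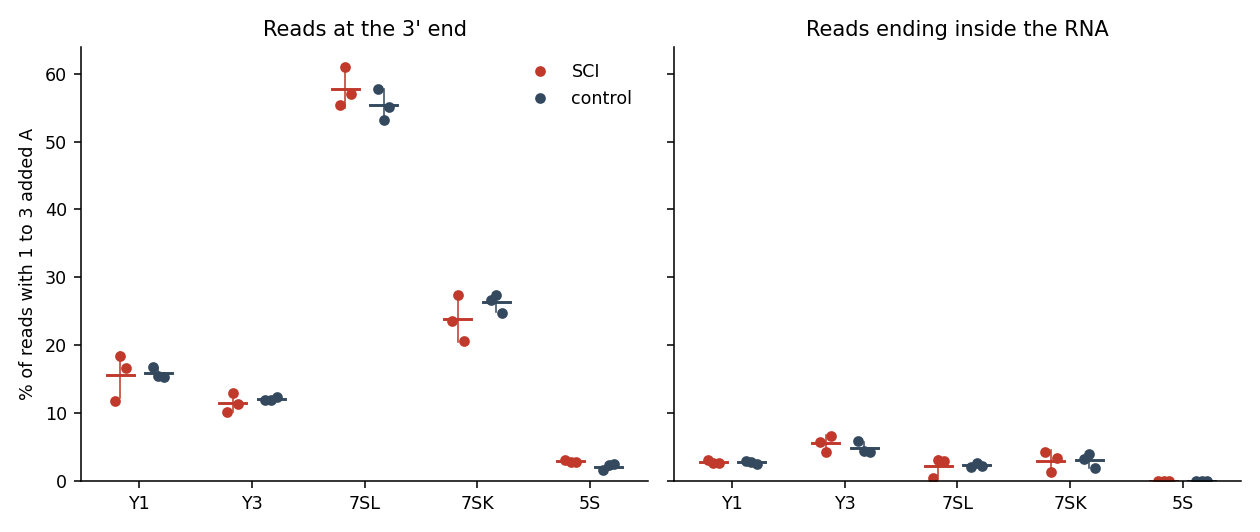
Percentage of reads with 1 to 3 added A, at the 3' end (left panel) and among reads that stop inside the RNA (right panel), for 5 families, SCI in red on the left and control in dark blue on the right of each pair. Points are libraries, horizontal lines means and vertical lines 1 SD; added A stands on 57.7% of 7SL 3' end reads in SCI and 55.4% in control on average, and on few inner reads.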

How the data were processed

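For each library the authors deposited, per the file headers, a table of distinct reads with the raw count of each. The submitters' processing notes name GRCm38 as the build, and trimmer and filters are not given in the sources used here. Per the labels' protocols, total RNA was extracted with the mirVana kit and libraries were made with HD adapters. Here all reads were matched without mismatch to GENCODE M21 transcripts. The genome was not searched, so a member may also lie elsewhere. Transcripts were assigned to families with blastn 2.17.0 (E value at most 1e-05, at least 50% of the transcript covered), and reads were placed on the named RNA with an end window of 3 nt. Placed reads leave out those found in variant copies only and those with added bases. Named families, their fragments of at least 1% of reads, the commonest reads and the 3 single reads of smallest p per direction are described. The members, lists and tests were chosen with earlier results of these data known, and the 3' end shares were added after seeing the data.

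Counts of families, fragments and sequences were tested on 3 whole tables with edgeR 4.0.16 (R 4.3.3; quasi-likelihood test, TMM, low counts removed by filterByExpr at 10), with DESeq2 1.42.0 and limma 3.58.1 as alternatives, and p-values adjusted over each table. edgeR was tested on simulated data. Shares were tested by exact permutation, two-sided, in scipy 1.17.1. Folds were predicted with RNAfold 2.7.2. For a share within a library, 95% Wilson intervals cover counting error only; their widest span was 5.81 points for 7SL 3' end shares and 16.4 points for 7SK. The labels give no batch and give each library as its own sample; chi-square values over families were at least 75.2 per degree of freedom for every pair, so none was a copy. Equal replicate numbers did not mark shared animals. One sequence and its single-read result are not reported here.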

Additional observations from a re-analysis of the deposited data

How the results depend on the processing

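Counts of called members depended on single libraries. Over the runs that left out 1 library, families called ranged from 0 to 1 higher and 0 to 1 lower, fragments from 0 to 1 higher and 0 to 2 lower, and sequences from 0 to 24 higher and 0 to 2 lower. Calls over the whole tables moved in the same runs. Without SCI 1, 3310 of 38971 sequences were higher and 236 lower, and 311 of 5977 features of the family table were higher and 57 lower; without control 3, 208 of 5287 were higher and 88 lower. Without SCI 1 the copies without a named RNA passed (log2 1.21) and 5.8S passed (-1.69); without control 3 5.8S (-1.68) and the 7SL 3' end (-1.41, range -1.41 to -0.63) passed. DESeq2 called 11 sequences higher and 7 lower, where edgeR called 0; the cause was not tested. With the replicate number as a block, 0 members were called in each table. The numbers share no litter or batch in the labels, and same-numbered libraries deviated together with correlations of 0.09, -0.23 and 0.05. The end shares of Y3 (5'), 7SL and 7SK (3') kept their direction under every alternative run; for 7SL the distinct sequences counted once gave -4.61 points, and no value was possible without reads shared with other transcripts.

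Among values that passed no test, some turned sign. With each distinct sequence counted once the family shares became -0.37 (Y3), -0.25 (vault) and -0.0706 (5S, log2). As a share of matched reads outside miRNA they became -0.0519 (7SL), -0.16 (vault) and -0.0346 (5S), and with added bases counted -0.17 (7SL). Over single libraries left out, family shares ranged from -0.20 to 0.29 (7SL), -0.12 to 0.36 (vault), -0.17 to 1.10 (rRNA antisense), -0.62 to 0.18 (RNase MRP RNA) and -0.34 to 0.0650 (RNase P RNA). For 5' end shares the difference became -0.0279 (Y1) and -0.732 (vault) points among reads of 17 to 29 nt. Without reads also in other transcripts it was -0.226 (7SL) and -4.33 (5S), with distinct sequences once -0.527 (7SL), and with a window of 0 nt -0.134 (5S). It ranged from -0.0771 to 2.84 (vault). For 3' end shares a window of 0 nt gave 0.145 (Y1) and 1.75 (vault) points, distinct sequences once -1.19 (Y3) and -3.29 (5S), and added bases counted -0.411 (5S); the ranges were -0.298 to 4.09 (Y3) and -0.893 to 5.23 (5S). Added bases differed by -1.61 to 1.85 points for Y1, and for 5S by 0.706 with exactly 1 added base and 0.774 with A only. In edgeR, total count scaling gave 0.29 (Y3), 0.0894 (7SL), 0.12 (vault), 0.21 (5S) and 0.39 (Y1 5' end). The Y1 5' end was also 0.0012 without a filter on low counts, 0.15 with the replicate block and 0.14 in limma-voom. The rRNA antisense was -0.0646 with DESeq2 size factors and -0.0646 in DESeq2. Leaving out libraries ranged from -0.19 to 0.0802 (Y3), -0.69 to 0.0579 (7SL), -0.355 to 0.0428 (5S), -0.36 to 0.51 (rRNA antisense) and -0.36 to 0.57 (Y1 5' end).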

Other observations

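BC1, which lay outside the rule by its annotated biotype, is the RNA polymerase III transcript most tied to neurons. Sense reads of the gene Bc1 took 0.0157%, 0.0146% and 0.0162% of all reads in SCI libraries 1, 2 and 3, against 0.0125%, 0.0125% and 0.0122% in control libraries 1, 2 and 3. The groups did not overlap on this scale, where 18.1% of all features of the family table lay higher in all SCI libraries. The separation rested on reads that Bc1 shares with other transcripts. In the family table, which gives a shared read to 1 feature, Bc1 held 0.00908%, 0.0117% and 0.0110% of all reads in SCI libraries 1, 2 and 3, against 0.0118%, 0.0113% and 0.0106% in control libraries 1, 2 and 3, and the groups overlapped. Its log2 fold change there was -0.45 ± 0.30 (SE) with edgeR's quasi-likelihood test (adjusted p = 0.615), and -0.08 ± 0.21 with scaling by total count (adjusted p = 0.889), so Bc1 was not called in either direction. Sense reads of Gm42418, the 18S-like transcript opposite the antisense reads, took 0.163%, 0.321% and 0.189% in the SCI libraries, against 0.282%, 0.612% and 0.338% in the controls, and the groups overlapped.

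A T added to the 3' end of Y1 was rare, with 286 reads in all. It stood on 0.184%, 0.126% and 0.173% of Y1 3' end reads in SCI libraries 1, 2 and 3, against 0.0754%, 0.00932% and 0.0455% in control libraries 1, 2 and 3, and every SCI library lay above every control (exact permutation p = 0.1). This value was chosen after the data were seen from among several kinds of added base. The annotated Y1 ends in a run of T, so such a T could be seen only after its last base. The genome beyond that base was not read, so the T may be encoded there.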
